A study of Mus musculus with 8 samples.

Results

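The 39 genes described here encode enzymes of glycolysis, fructolysis and the pentose phosphate pathway, together with the enzymes that pass pyruvate on to lactate or to the mitochondria. They were chosen by gene symbol from textbook roles, with earlier results of these data known. All 39 were found among the 55367 genes of the deposited count table. Their RNA levels were compared between whole kidneys of 4 c-MafΔTAM mice and 4 c-Maf fl/fl mice. Both genotypes were on the C57BL/6J strain with an age of 8 weeks in the labels, carried floxed *c-Maf* alleles, and received tamoxifen (TAM) by intraperitoneal injection. The c-MafΔTAM mice (labelled Maf conditional KO) also carried CAG-Cre-ER TM, a TAM-inducible Cre recombinase under a promoter that is active in nearly all cell types, so the deletion was not limited to the kidney. The c-Maf fl/fl mice (labelled Maf flox/flox, and called control mice here) had no Cre, and no group carried Cre without floxed alleles, so effects of Cre and of *c-Maf* loss cannot be told apart. The study ties this comparison to its time point TAM(10d).

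Glycolysis splits glucose into pyruvate, fructolysis feeds fructose into the same chain below its main control step, and the pentose phosphate pathway branches off at glucose phosphate to make NADPH and ribose. Kidney tubules divide this work along the nephron. The proximal tubule mostly burns fatty acids and lactate, takes up and breaks down fructose, and makes new glucose, whereas the distal segments and the medulla rely more on glycolysis. Pyruvate stands where the routes meet, because it can be reduced to lactate, oxidized by the mitochondrial pyruvate dehydrogenase complex, or carboxylated for gluconeogenesis.

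The libraries held 16649129 to 22990257 counts, of which 17.1% to 32.3% came from genes of the mitochondrial genome, with the highest share in c-MafΔTAM mouse 1. Levels are given as CPM, counts scaled to a common library size by edgeR's TMM method, which suits comparisons of 1 gene between mice. Levels of different genes are compared only as TPM, which also divide by the length of each gene's exons. *Maf* itself had 9.06, 34.5, 29.6 and 10.1 CPM in c-MafΔTAM mice 1 to 4 and between 305 and 380 CPM in the control mice, a log2 fold change of -4.05 (SE 0.512, adjusted *P* = 0.0115 in edgeR's quasi-likelihood test). The RNA extraction note names the liver although the tissue label is whole kidney. The proximal tubule receptor gene *Lrp2* had at least 4466 CPM and the thick limb gene *Umod* at least 1648 CPM in every mouse, whereas the hepatocyte gene *Alb* had at most 8.85 CPM. Of the 11 hepatocyte genes 4 were too low to be tested, and 5, *Alb* among them, were at most at 14.5 CPM. The other 2 were *Apob*, at 434.5 to 709.7 CPM, and *Cyp2e1*, at 47.2 to 1398 CPM with its 3 highest values in the mice with low *Xist*, and they made up most of the summed level of 667.7 to 1841 CPM in c-MafΔTAM and 672.4 to 1329 CPM in control mice. *Xist*, which is transcribed from the inactive X chromosome of females, had 2 counts in c-MafΔTAM mouse 1 and 6 and 22 counts in control mice 3 and 4, whereas the other 5 mice had 17618 to 22387. Sex is not given in the labels, so values without the 3 mice with low *Xist*, and with the *Xist* level as a covariate, are given for the members and related genes whose call they changed.

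All 39 genes passed the filter on low counts and were tested. Of these, 2 fell in c-MafΔTAM mice, namely *Pdk2*, a kinase that inhibits pyruvate dehydrogenase, and *Tkt*, the transketolase of the pentose phosphate pathway, and 0 rose (log2 fold change against control mice, Benjamini-Hochberg adjusted *P* under 0.05 over all genes tested). That is 5.13% of the members, beside 1.58% of the 20149 tested genes that fell and 0.586% that rose. At an unadjusted *P* under 0.05 there were 8 members with lower (20.5%) and 2 with higher levels (5.13%), beside 7.44% and 6.58% of all genes tested, and edgeR's exact test and DESeq2 each called 1 further member, *Pklr*, as higher. The median log2 fold change was -0.03 over the members and 0.00 over all genes tested (the unrounded values are -0.0329 and 0.0027), and 24 members lay below and 15 above 0. In 11 members the 4 mice of one genotype did not overlap with the 4 mice of the other. Of these, 7 (17.9%) were lower and 4 (10.3%) higher in c-MafΔTAM mice, beside 5.62% and 4.17% of all genes tested. Because the members were chosen with earlier results known, the shares set beside all genes are a description and not a test.

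**Figure D1:**
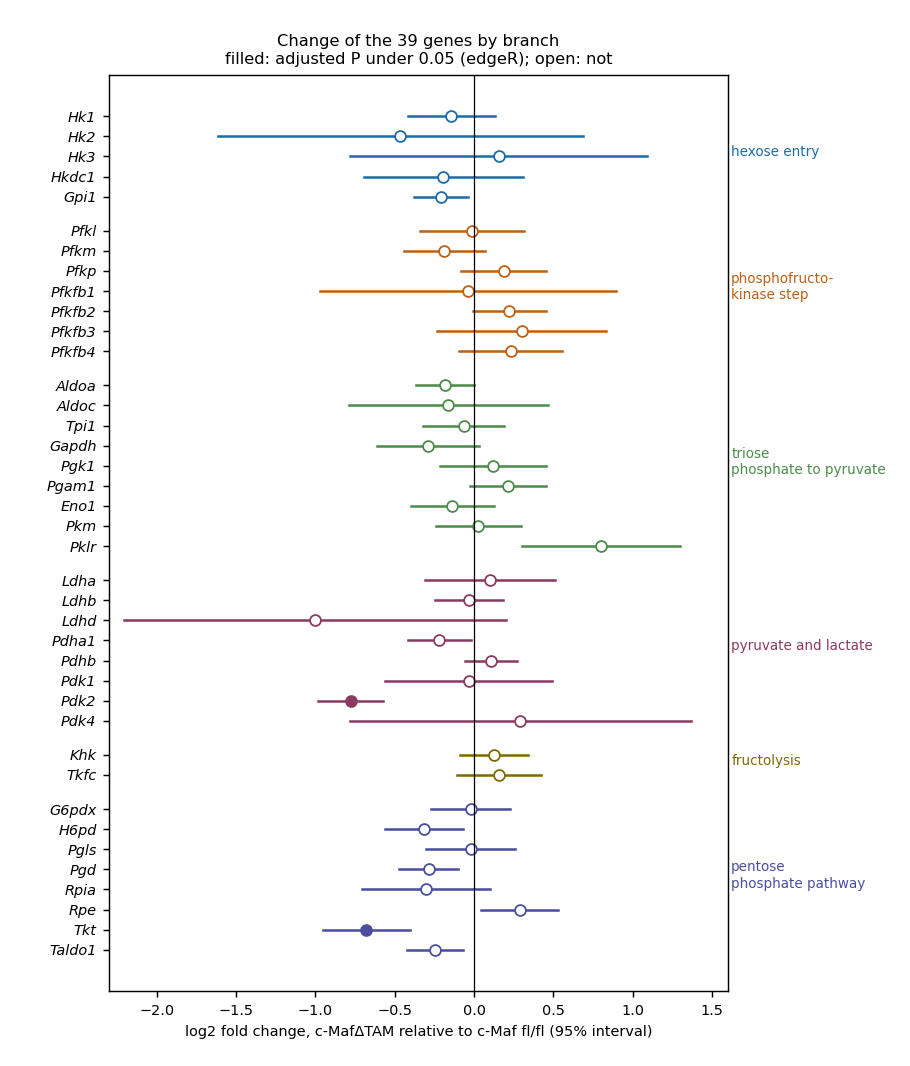
The log2 fold change of each of the 39 genes in c-MafΔTAM relative to control mice, with its 95% interval (horizontal axis) and the genes grouped by branch (vertical axis). *Pdk2* at -0.78 and *Tkt* at -0.68 are the filled points, *Pklr* at 0.80 is the highest point, and *Ldhd* at -1.002 has the widest interval.

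Whole kidneys mix many cell types, so fewer cells of a type and less RNA per cell cannot be told apart in these values. Markers of the early proximal tubule (segments S1 and S2) were lower in the same mice: 7 of 9 fell, among them the glucose transporters *Slc5a2* (log2 fold change -3.71, adjusted *P* = 0.0101) and *Slc2a2* (-1.13, 0.0062) and the creatine synthesis gene *Gatm* (-3.78, 0.0191). The others were *Slc5a12* (-1.71, adjusted *P* = 0.000349), *Slc4a4* (-0.99, 0.000113), *Slc34a1* (-1.23, 0.000217) and *Slc6a19* (-1.23, 0.0158). The summed level of the 9 markers was 8441 to 12330 CPM in c-MafΔTAM and 15220 to 17270 CPM in control mice. The endocytic receptor genes *Lrp2* and *Cubn* were not called, and *Lrp2* had a log2 fold change of -0.17 (SE 0.164). The late segment S3 had 0 of 7 markers called, with summed levels of 3779 to 4624 CPM and 3807 to 5308 CPM. Of these, *Slc7a13*, *Cyp7b1* and *Acsm3* followed *Xist* status, with at least 97.8 CPM in each mouse with low *Xist* and at most 6.82 CPM in the others, and their log2 fold changes had SEs of 1.95 to 2.46. The endothelial receptor gene *Kdr* fell (-0.37, adjusted *P* = 0.045), with 84.7 ± 6.32 CPM against 109.8 ± 7.17 CPM (mean ± SD, n = 4 each), and the other 4 endothelial markers were not called. DESeq2 also called *Kdr*, whereas edgeR's exact test called no endothelial marker. No marker of the thick limb, distal convoluted tubule, collecting duct, podocytes, macrophages, lymphocytes, fibroblasts, hepatocytes, skeletal muscle, red blood cells, tubular injury or the cell cycle was called in edgeR's quasi-likelihood test. Of the 54 of these genes that were tested, 5 (9.26%) were lower and 5 (9.26%) higher at an unadjusted *P* under 0.05. The shares of all genes tested were 7.44% and 6.58%. Among these markers, edgeR's exact test called 2 (*Alb*, *Serpina1a*) and DESeq2 called 2 (*Alb*, *Pvalb*). The macrophage markers summed to 98.97 to 103.5 CPM in c-MafΔTAM and 86.03 to 92.95 CPM in control mice. *Acta1* and *Hbb-bs*, checks for muscle and blood, had log2 fold changes of -0.43 (SE 0.446) and -0.20 (SE 0.193). The part of these shifts in the results on the enzymes was not tested.

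Per length, the members spanned a wide range of levels. In control mice, *Ldhb* (356 ± 70.4 TPM, mean ± SD, n = 4), *Khk* (314 ± 56.6 TPM) and *Aldoa* (255 ± 43.4 TPM) had the highest mean levels of the 39. The lowest were *Hk3* (0.247 ± 0.132 TPM), *Pfkfb1* (0.412 ± 0.144 TPM) and *Hk2* (0.56 ± 0.504 TPM). These levels carry a limit, since only reads assigned to a single gene were counted. Of the distinct 36-base stretches in the transcripts of a gene, the length of a read, 54.5% were shared with other genes for *Pgk1*, 36.9% for *Pgam1*, 31.8% for *Pkm*, 29.6% for *Ldhb*, 27.9% for *Eno1* and 27.3% for *Gapdh*. These others were mostly pseudogenes and near copies, and for *Pkm* also *Gm49759*, which overlaps 15.3% of its exonic bases. *Ldhd* shared 40.9%, led by *Znrf1*, whose exons overlap with its own. *Gapdh* stood at 6.5 ± 1.77 TPM in control mice, under the 172.9 ± 20.01 TPM of *Tpi1*, the enzyme just before it in the chain. How many reads were lost in this way was not tested, so the TPM of these genes are uncertain. *Pdk2* shared 0% of its stretches and *Tkt* 0.0939%.

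**Figure D2:**
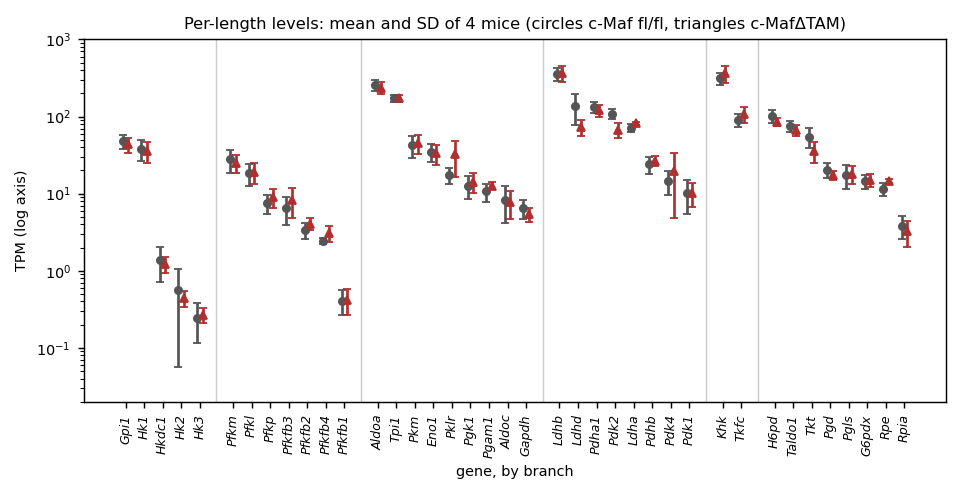
Mean TPM (log axis) with SD over 4 mice for the 39 genes, grouped by branch and ordered within a branch by the control level, with circles for control and triangles for c-MafΔTAM mice. Levels run from 0.247 TPM for *Hk3* to 356 TPM for *Ldhb* in control mice, and the error bars of the genotypes overlap for most genes.

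Hexokinases trap glucose in the cell as glucose phosphate, and glucose phosphate isomerase (*Gpi1*) turns it into fructose phosphate. In this entry branch of 5 genes, 0 were called in the quasi-likelihood test, in edgeR's exact test and in DESeq2. At an unadjusted *P* under 0.05, 1 (20%) was lower, beside 7.44% of all genes tested, and the median log2 fold change was -0.19. *Gpi1*, on chromosome 7 (34201330 to 34230336, minus strand), had the highest level per length of the branch. It had 137 CPM in c-MafΔTAM mouse 1 and 157, 155 and 157 CPM in mice 2 to 4, against 177, 172, 179 and 173 CPM in control mice 1 to 4. All c-MafΔTAM mice thus lay below all control mice, but the log2 fold change of -0.21 (SE 0.0786) did not pass the adjusted threshold (unadjusted *P* = 0.0205, adjusted *P* = 0.247).

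*Hk1*, the housekeeping hexokinase, took 94.7% ± 1.03 of the summed hexokinase TPM in c-MafΔTAM and 94.5% ± 1.14 in control mice (mean ± SD, n = 4). Its level was 163 ± 27.0 CPM in c-MafΔTAM and 181 ± 19.5 CPM in control mice, with a log2 fold change of -0.14 (-0.0341 without c-MafΔTAM mouse 1) and a 95% interval from -0.42 to 0.13. *Hkdc1*, a hexokinase-like gene, was at 2.59 to 5.10 CPM (interval of the log2 fold change from -0.69 to 0.31). The insulin-responsive *Hk2* was at 0.932 to 1.77 CPM in 7 mice and at 4.82 CPM in control mouse 3, and its log2 fold change of -0.46 became 0.46 without that mouse. *Hk3* stayed at or below 0.668 CPM in every mouse (interval from -0.78 to 1.09). At these low levels the intervals still held a log2 fold change of -1 for *Hk2* and of 1 for *Hk3*.

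The phosphofructokinase step is the main control point of glycolysis, where 3 genes encode the enzyme's liver, muscle and platelet forms, and 4 *Pfkfb* genes encode the enzymes that make and break its bisphosphate activator. Of these 7 genes 0 were called, and 0 reached an unadjusted *P* under 0.05 in the quasi-likelihood test, edgeR's exact test and DESeq2 also called 0, and the median log2 fold change was 0.19. *Pfkm*, the form with the highest level per length, was at 37.7, 46.2, 50.1 and 48.0 CPM in c-MafΔTAM mice 1 to 4 and 58.4, 56.8, 48.1 and 43.9 CPM in control mice 1 to 4. The genotypes overlapped (log2 fold change -0.19, SE 0.117, adjusted *P* = 0.521). *Pfkl* was at 68.1 ± 12.3 CPM in c-MafΔTAM and 68.7 ± 11.3 CPM in control mice (mean ± SD, n = 4), and *Pfkp* at 64.4 ± 10.4 and 56.5 ± 6.23 CPM. Their intervals ran from -0.34 to 0.31 and from -0.08 to 0.45.

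Among the *Pfkfb* genes, *Pfkfb2* had no overlap between genotypes, at 16.2, 17.5, 15.5 and 15.75 CPM in c-MafΔTAM and 15.3, 12.8, 14.5 and 13.1 CPM in control mice. The gap was narrow, and the log2 fold change of 0.22 (SE 0.105) had an adjusted *P* of 0.374. *Pfkfb2* shared 19.5% of its exonic bases with *Yod1* and *Gm29427*, and reads there were not counted. *Pfkfb3*, whose product strongly favours synthesis of the activator, was at 26.3 to 29.5 CPM in c-MafΔTAM mice 1 to 3 and at 49.5 CPM in mouse 4, against 19.2 to 34.8 CPM in control mice. *Pfkfb4* ranged from 7.14 to 9.09 CPM and from 6.18 to 8.15 CPM, and *Pfkfb1* from 0.411 to 1.43 CPM and from 0.442 to 1.32 CPM. The intervals of these 3 genes ran from -0.23 to 0.83, from -0.09 to 0.56 and from -0.97 to 0.90.

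The next 9 genes carry fructose bisphosphate to pyruvate. None was called in the quasi-likelihood test, whereas edgeR's exact test and DESeq2 called 1 (*Pklr*). At an unadjusted *P* under 0.05, 1 (11.1%) was higher and 1 (11.1%) lower, beside 6.58% and 7.44% of all genes tested. The median log2 fold change was -0.07. *Aldoa*, the aldolase of muscle and most tissues and the highest of this branch per length, was at 463, 496, 481 and 471 CPM in c-MafΔTAM and 509, 524, 578 and 560.4 CPM in control mice 1 to 4. No value overlapped, and the log2 fold change was -0.18 (SE 0.0827, unadjusted *P* = 0.046, adjusted *P* = 0.345). The brain form *Aldoc* was at 8.7 to 17.9 CPM and 9.09 to 21.9 CPM.

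*Pklr*, which encodes the pyruvate kinase of liver and red cells and lies on chromosome 3 (89136142 to 89146784, plus strand), had the highest log2 fold change of the 39 genes. Its levels were 45.7, 42.5, 48.0 and 88.0 CPM in c-MafΔTAM mice 1 to 4 and 30.6, 33.5, 34.2 and 30.3 CPM in control mice 1 to 4. Every c-MafΔTAM mouse was above every control mouse, and mouse 4 stood far above the other 3. The log2 fold change of 0.80 (SE 0.22) had an adjusted *P* of 0.125 in the quasi-likelihood test, of 0.0151 in edgeR's exact test and of 0.00853 in DESeq2. Without c-MafΔTAM mouse 4 it came to 0.50 (adjusted *P* = 0.0222), and with each other mouse left out in turn the adjusted *P* was at most 0.285 and not under the threshold. In the 5 high-*Xist* mice, the log2 fold change was 0.89 (SE 0.43, adjusted *P* = 0.483). *Pklr* shared 22% of its exonic bases with *Hcn3* on the other strand, and strand was not used in the counting. *Pkm*, the other pyruvate kinase gene, was at 122 ± 17.4 and 119.9 ± 15.0 CPM (mean ± SD, n = 4), with an interval from -0.24 to 0.30.

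As a share of the summed TPM of both pyruvate kinase genes, *Pklr* took 42.4%, 33.7%, 36.3% and 50.5% in c-MafΔTAM mice 1 to 4 and 26.2%, 28.7%, 31.0% and 32.0% in control mice 1 to 4. The shares did not overlap. They rest on the same counts as the levels and on *Pkm* counts of which a part may be lost to near copies, so they are given as a description.

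Of the other genes of this branch, *Pgam1* had no overlap, at 15.5, 13.6, 13.1 and 13.5 CPM in c-MafΔTAM and 12.9, 12.2, 11.8 and 11.02 CPM in control mice (log2 fold change 0.21, SE 0.11, adjusted *P* = 0.422). The distance between the nearest mice of the 2 genotypes was small beside the spread within each. *Gapdh* was at 9.15 to 14.5 CPM in c-MafΔTAM and 14.2 to 16.1 CPM in control mice (interval from -0.61 to 0.03). *Tpi1* (-0.32 to 0.19), *Pgk1* (-0.21 to 0.46) and *Eno1* (-0.40 to 0.12) also had intervals that included 0. Their mean levels in c-MafΔTAM and control mice were 265 and 277 CPM for *Tpi1*, 17.3 and 15.9 CPM for *Pgk1*, and 95.5 and 105 CPM for *Eno1*.

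**Figure D3:**
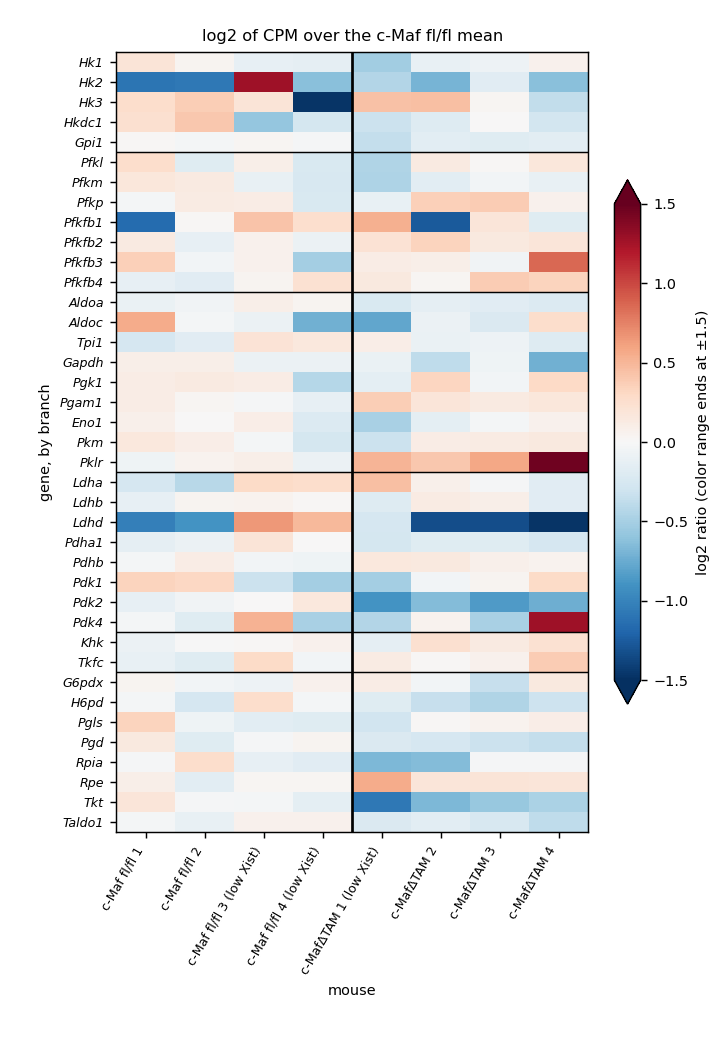
The log2 ratio of each gene's CPM to its control mean (color, ending at ±1.5) in each of the 8 mice (columns) for the 39 genes by branch (rows), with a line between genotypes. *Pdk2* and *Tkt* are blue in all 4 c-MafΔTAM mice, *Pklr*, *Pfkfb3* and *Pdk4* are reddest in c-MafΔTAM mouse 4, and *Ldhd* separates the 3 mice with low *Xist* from the rest.

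Of the 8 pyruvate and lactate genes, 1 (12.5%) fell and 0 rose, beside 1.58% and 0.586% of all genes tested. At an unadjusted *P* under 0.05, 2 (25%) were lower and 0 higher, beside 7.44% and 6.58%. Both edgeR's exact test and DESeq2 called the same gene, *Pdk2*, and the median log2 fold change was -0.03. *Pdk2* lies on chromosome 11 (95026258 to 95041354, minus strand) and encodes a kinase that phosphorylates and switches off the pyruvate dehydrogenase complex. Its levels were 107, 127, 111 and 119.5 CPM in c-MafΔTAM mice 1 to 4 and 183, 191, 199.6 and 222 CPM in control mice 1 to 4. The highest c-MafΔTAM mouse was thus well below the lowest control mouse. Mean levels were 116 ± 9.04 and 199 ± 17.1 CPM (SD, n = 4). The level fell by 41.7%, a log2 fold change of -0.78 (SE 0.0925, 95% interval from -0.98 to -0.58, adjusted *P* = 0.000746 in edgeR's quasi-likelihood test). With each mouse left out in turn, *Pdk2* was called in all 8 fits, at -0.83 to -0.72, and in the 5 high-*Xist* mice it was at -0.65 (SE 0.0841, adjusted *P* = 0.00024). It shared no exonic base with another gene.

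The other kinases of this complex did not follow it past the threshold. *Pdk1* was at 42.6 ± 9.27 CPM in c-MafΔTAM and 43.6 ± 12.8 CPM in control mice (mean ± SD, n = 4), with an interval of the log2 fold change from -0.56 to 0.49. *Pdk4*, the fasting-induced form, was at 21.6, 30.4, 21.0 and 70.5 CPM in c-MafΔTAM and 28.6, 25.7, 41.9 and 20.8 CPM in control mice (0.29, SE 0.452, adjusted *P* = 0.835). Its value in c-MafΔTAM mouse 4 was the highest of the 8, and without that mouse the log2 fold change was -0.27. *Pdk3*, from the related list, was at 61.4, 40.1, 36.5 and 37.6 CPM against 25.1, 32.2, 38.5 and 35.0 CPM (0.43, SE 0.184, adjusted *P* = 0.336). Of the summed TPM of the 4 kinase genes, *Pdk2* took 49.8%, 57.4%, 57.4% and 47.6% in c-MafΔTAM mice 1 to 4 and 69.8%, 69.2%, 66.8% and 74.9% in control mice 1 to 4. *Pdk2* had the largest share in every mouse, and its shares did not overlap between genotypes. The share of *Pdk3* was 18.5% to 35.4% in c-MafΔTAM and 11.8% to 15.9% in control mice.

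**Figure D4:**
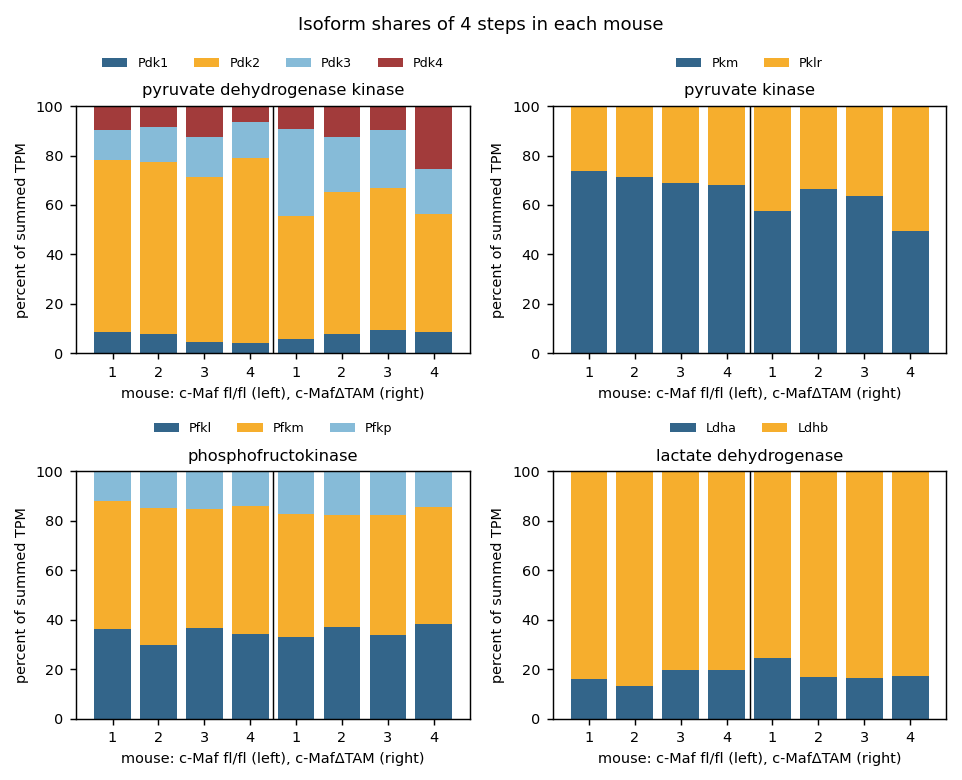
Percent of the summed TPM of 4 steps taken by each isoform (stacked bars from 0 to 100) in each mouse, with control mice on the left and c-MafΔTAM mice on the right of the line. *Pdk2* takes 47.6% to 57.4% of the kinase total in c-MafΔTAM mice against 66.8% to 74.9%, *Pklr* takes 33.7% to 50.5% of pyruvate kinase against 26.2% to 32.0%, and the phosphofructokinase and lactate dehydrogenase shares overlap.

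The pyruvate dehydrogenase subunit gene *Pdha1* was at 237, 251, 250.1 and 239.8 CPM in c-MafΔTAM and 260, 267, 326 and 285 CPM in control mice. There was no overlap, but the log2 fold change of -0.22 (SE 0.0914) was not called (unadjusted *P* = 0.0345, adjusted *P* = 0.309). *Pdhb*, the partner subunit, was at 54.1 to 58.2 CPM and 50.1 to 56.7 CPM, with an interval from -0.06 to 0.27.

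*Ldhb*, the lactate dehydrogenase subunit of oxidative tissues and the highest of the branch per length, was at 279, 348, 338 and 284 CPM in c-MafΔTAM and 294, 328, 330.3 and 325 CPM in control mice. The genotypes overlapped, and the interval of the log2 fold change ran from -0.25 to 0.18. *Ldhb* took 81.3% ± 3.93 of the summed TPM of *Ldha* and *Ldhb* in c-MafΔTAM and 82.8% ± 3.19 in control mice (mean ± SD, n = 4). *Ldha*, the subunit of glycolytic tissues, was at 192, 148, 139 and 125 CPM in c-MafΔTAM and 118, 105, 171 and 168 CPM in control mice, so that the 3 mice with low *Xist* had its 3 highest values. Its log2 fold change was 0.10 (SE 0.184).

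*Ldhd*, the mitochondrial dehydrogenase of D-lactate, was singled out after its values were seen, because it had the lowest log2 fold change of the 39 genes without being called. It was at 382, 180.2, 181 and 164 CPM in c-MafΔTAM mice 1 to 4 and at 222, 245, 710.5 and 638 CPM in control mice 1 to 4. The mice with low *Xist*, 1 c-MafΔTAM and 2 c-Maf fl/fl, had the 3 highest values, and within the mice with high *Xist* and within those with low *Xist* each c-MafΔTAM mouse lay below each control mouse. Over all 8 mice the log2 fold change was -1.002 (SE 0.505, adjusted *P* = 0.45). With the log2 *Xist* level as a covariate, it was -0.65 (SE 0.11, adjusted *P* = 0.00252), in a fit that called 4.23% of all genes as lower, and in the 5 high-*Xist* mice it was -0.42 (SE 0.0843, adjusted *P* = 0.00927), in a fit that called 2.22% as lower. *Ldhd* shared 42.2% of its exonic bases with *Znrf1* on the other strand, and reads on these bases were not counted for either gene.

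**Figure D5:**
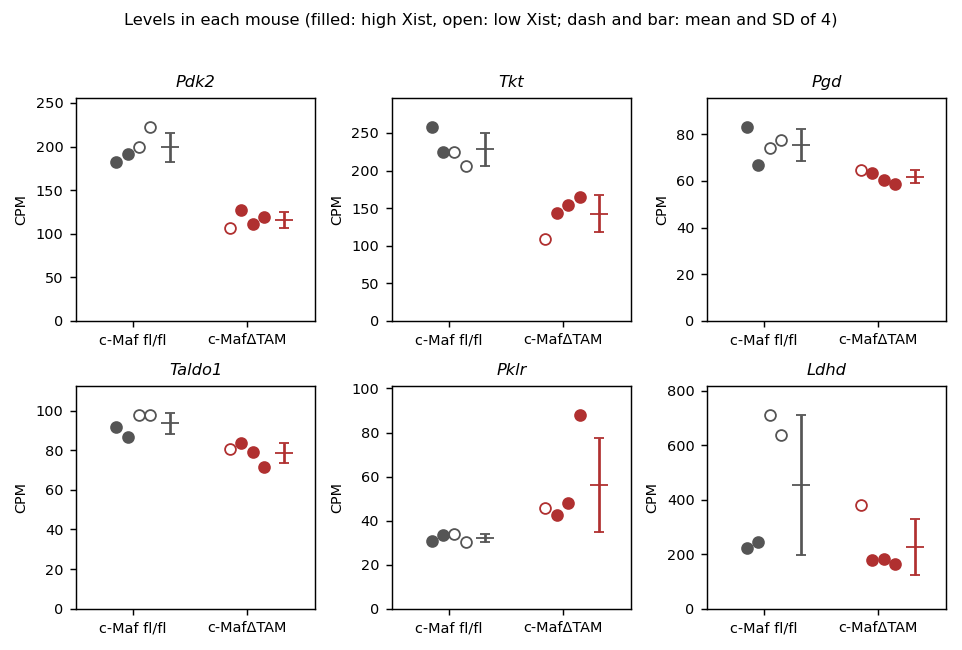
CPM of *Pdk2*, *Tkt*, *Pgd*, *Taldo1*, *Pklr* and *Ldhd* (vertical axes from 0) in each mouse by genotype, with filled points for high and open points for low *Xist*, and the mean and SD of 4 mice as dash and bar. *Pdk2* and *Tkt* do not overlap between genotypes, *Pklr* has 1 c-MafΔTAM mouse at 88.0 CPM, and the 3 open points of *Ldhd* lie above the filled ones.

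Fructose enters the cell's chemistry through ketohexokinase (*Khk*) and, further on, triokinase (*Tkfc*), both of which are abundant in proximal tubule. Neither was called by edgeR's quasi-likelihood or exact test or by DESeq2, and neither reached an unadjusted *P* under 0.05. *Khk*, the higher per length, was at 294, 383, 355 and 378 CPM in c-MafΔTAM and 304, 323, 327 and 339 CPM in control mice. c-MafΔTAM mouse 1 was the lowest of the 8 and the other 3 were the highest. The log2 fold change was 0.12 (SE 0.0991) with an interval from -0.09 to 0.34, and in the 5 high-*Xist* mice it was 0.25 (SE 0.0833, adjusted *P* = 0.144). *Tkfc* was at 245 to 316 CPM and 213 to 296 CPM, with an interval from -0.11 to 0.42. The glucose transporter genes *Slc5a2* and *Slc2a2* fell in the same kidneys, whereas the 95% intervals of *Khk* and *Tkfc* did not reach below -0.09 and -0.11.

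In the pentose phosphate pathway, 1 of 8 genes (12.5%) fell and 0 rose, beside 1.58% and 0.586% of all genes tested, and edgeR's exact test and DESeq2 called the same gene, *Tkt*. At an unadjusted *P* under 0.05, 4 (50%) were lower and 1 (12.5%) higher, beside 7.44% and 6.58% of all genes tested. The log2 fold change was below 0 in 7 of 8 genes, beside 49.5% of all genes tested, and the median was -0.27. *Tkt* encodes transketolase, which shuttles carbon between sugar phosphates in the non-oxidative arm and so links the pathway back to glycolysis. It lies on chromosome 14 (30548359 to 30574720, plus strand). Its levels were 109, 143, 154 and 165 CPM in c-MafΔTAM mice 1 to 4 and 258, 225, 224 and 206 CPM in control mice 1 to 4. All c-MafΔTAM mice were below all control mice, with the lowest value in the mouse with low *Xist*. Means were 143 ± 24.3 and 228 ± 21.7 CPM (SD, n = 4). The level fell by 37.6%, a log2 fold change of -0.68 (SE 0.126, 95% interval from -0.95 to -0.40, adjusted *P* = 0.0152).

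The call on *Tkt* was less stable than that on *Pdk2*. Without c-MafΔTAM mouse 2 its log2 fold change was -0.68 with an adjusted *P* of 0.0574, and under quantile normalization with limma it was -0.62 with an adjusted *P* of 0.0689. With the other mice left out in turn it was called in 7 of 7 fits, and over all 8 of these fits it lay between -0.76 and -0.57. With *Xist* as a covariate it was -0.75 (SE 0.0852, adjusted *P* = 3.02e-05) and in the 5 high-*Xist* mice -0.65 (SE 0.0909, adjusted *P* = 0.000482).

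*Taldo1* encodes transaldolase, the partner of transketolase in the same arm. It was at 80.6, 83.5, 79.1 and 71.6 CPM in c-MafΔTAM and 91.6, 86.9, 97.8 and 97.8 CPM in control mice. The genotypes did not overlap, and the log2 fold change of -0.25 (SE 0.0807) had an unadjusted *P* of 0.00991 and an adjusted *P* of 0.176. *Rpe*, the epimerase that feeds transketolase, went the other way, at 30.2, 23.3, 23.6 and 23.3 CPM against 21.9, 18.4, 21.0 and 20.9 CPM (0.29, SE 0.112, unadjusted *P* = 0.0249, adjusted *P* = 0.27), and without c-MafΔTAM mouse 1 its log2 fold change was 0.19. It shared 17.9% of its exonic bases with *Kansl1l* on the other strand. The isomerase gene *Rpia* was at 7.17 to 11.3 CPM and 10.2 to 13.7 CPM, with an interval from -0.71 to 0.10.

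The oxidative arm makes NADPH. *Pgd*, the later of its dehydrogenases, was at 64.7, 63.4, 60.2 and 58.8 CPM in c-MafΔTAM and 83.1, 66.6, 74.3 and 77.4 CPM in control mice. No value overlapped, the log2 fold change was -0.29 (SE 0.0851, unadjusted *P* = 0.00574, adjusted *P* = 0.129), and with *Xist* as a covariate it was -0.28 with an adjusted *P* of 0.0455, in the fit that called 4.23% of all genes as lower. In the 5 high-*Xist* mice it was -0.30 and not called (adjusted *P* = 0.128). *H6pd*, the form of the endoplasmic reticulum and the highest of the branch per length, was at 268, 239, 223 and 246 CPM in c-MafΔTAM and 299, 256, 364 and 298 CPM in control mice. The genotypes overlapped in 1 control mouse (log2 fold change -0.32, SE 0.112, unadjusted *P* = 0.0154, adjusted *P* = 0.215, exact permutation *P* = 0.0571). *G6pdx*, the entry enzyme of the cytosol, was at 25.4 ± 3.75 and 25.8 ± 1.18 CPM (mean ± SD, n = 4), with an interval from -0.27 to 0.22, and the lactonase gene *Pgls* was at 36.6 ± 4.16 and 37.1 ± 6.54 CPM, with an interval from -0.30 to 0.26.

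A further 79 genes of glucose metabolism were listed by textbook role, also with earlier results known, and 71 of them could be tested. Of these, 4 (5.63%) fell and 0 rose, beside 1.58% and 0.586% of all genes tested. At an unadjusted *P* under 0.05, 10 (14.1%) were lower and 3 (4.23%) higher, beside 7.44% and 6.58%, and the median log2 fold change was -0.02. The others were too low to be tested, among them *Eno4*, *Pgk2*, *Ldhc*, *Ldhal6b*, *Tktl1* and *Tktl2*. Of the 9 genes for pyruvate entry to mitochondria, 1 (11.1%) fell. At an unadjusted *P* under 0.05, 1 (11.1%) was lower and 1 (11.1%) higher. *Pdp2*, a phosphatase that switches the pyruvate dehydrogenase complex back on and so opposes *Pdk2*, was at 39.8, 51.7, 49.0 and 37.0 CPM in c-MafΔTAM and 88.6, 101, 104 and 106 CPM in control mice. The level fell by 55.6%, a log2 fold change of -1.17 (SE 0.115, adjusted *P* = 0.000192). The kinase and the phosphatase were thus both lower in all 4 c-MafΔTAM mice.

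In the list of 11 polyol, hexosamine and galactose genes, 2 (18.2%) fell, beside 1.58% of all genes tested. At an unadjusted *P* under 0.05, 4 (36.4%) were lower and 1 (9.09%) higher, beside 7.44% and 6.58%. *Dcxr*, a reductase of xylulose in the glucuronate route, was at 30.1, 42.3, 42.0 and 43.3 CPM in c-MafΔTAM and 94.1, 97.9, 96.7 and 103 CPM in control mice. It fell by 59.7% (log2 fold change -1.31, SE 0.112, adjusted *P* = 8.68e-05). *Sord*, which oxidizes sorbitol to fructose, was at 345, 311, 281 and 255 CPM in c-MafΔTAM and 431, 494, 600.3 and 561 CPM in control mice. It fell by 42.9% (-0.81, SE 0.126, adjusted *P* = 0.00567).

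Of the 8 gluconeogenesis genes, 1 (12.5%) fell, beside 1.58% of all genes tested. At an unadjusted *P* under 0.05, 4 (50%) were lower and 0 higher, beside 7.44% and 6.58%. The log2 fold change was below 0 in 7 of the 8 genes, beside 49.5% of all genes tested, and the median was -0.35. *Pcx*, the pyruvate carboxylase that starts gluconeogenesis from pyruvate, was at 408, 486, 443 and 478 CPM in c-MafΔTAM and 679.8, 619.6, 801 and 803 CPM in control mice, and fell by 37.5% (-0.68, SE 0.109, adjusted *P* = 0.00656). *Pck1*, the phosphoenolpyruvate carboxykinase, was at 1206, 1938, 1996 and 1841 CPM against 2571, 2472, 3478 and 2608 CPM (-0.67, SE 0.167) and missed the threshold with an adjusted *P* of 0.068, although edgeR's exact test (0.0404) and DESeq2 (0.00584) called it. In the 5 high-*Xist* mice it was called at -0.39 (SE 0.0894, adjusted *P* = 0.0216), and with *Xist* as a covariate it was -0.71 and not called (adjusted *P* = 0.0612). *Fbp1*, which reverses the phosphofructokinase step, had 594 ± 39.9 and 701 ± 69.4 CPM (mean ± SD, n = 4). Its log2 fold change of -0.24 (SE 0.0982) was not called in the quasi-likelihood test (unadjusted *P* = 0.0318, adjusted *P* = 0.298). *G6pc*, which releases free glucose, ranged from 116 to 379 CPM and from 237 to 711 CPM. It was not called in the same test (-0.75, SE 0.485, adjusted *P* = 0.562). Its log2 fold change was -0.27 without control mouse 3, which had the highest value, and -0.16 in the 5 high-*Xist* mice. The remaining lists had 0 called genes in edgeR's quasi-likelihood test, its exact test and DESeq2: 9 tested other glycolytic isoforms (1, or 11.1%, lower at an unadjusted *P* under 0.05), 6 other pentose phosphate genes (0), 19 glycogen genes (1, or 5.26%, higher), 3 glycerol phosphate shuttle genes (0) and 6 regulators (0). In the other related lists, edgeR's exact test also called *Galk1* and *Pck1* as lower, and DESeq2 called these and *Slc37a4*. *Galk1*, the galactokinase, had a log2 fold change of -0.50 (SE 0.127, adjusted *P* = 0.0734), and it was called with *Xist* as a covariate (-0.56, adjusted *P* = 0.00191) and in the 5 high-*Xist* mice (-0.51, adjusted *P* = 0.0231). *Slc37a4*, the carrier of glucose phosphate into the endoplasmic reticulum, was at -0.46 (SE 0.111, adjusted *P* = 0.0562) and was called with the covariate (-0.48, adjusted *P* = 0.00954) but not in the high-*Xist* mice (-0.34, adjusted *P* = 0.0698).

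Around the start sites of the genes that fell, the sequence TGCTGAC was searched on both strands. This sequence is a form of the half-site of the Maf recognition element, the DNA sequence that Maf factors bind, and its core GCTGAC was also searched, so each match of the longer sequence is also a match of the core. The windows were RefSeq starts on GRCm38.p6, from 250 bases before to 50 after a start, and genes with several starts have several windows. TGCTGAC was found in 4.67% of all 32851 windows and GCTGAC in 15.7%. Counted by gene, with a match in any window of a gene, the shares were 5.28% and 17.6% of 27025 genes. All 39 members had windows. TGCTGAC was in a window of 2 of them (5.13%), *Pfkfb1* and *Pfkfb2*, and GCTGAC in a window of 11 (28.2%), which include *Pdk2* and *Tkt*. Of the related genes, 68 of 79 had windows, TGCTGAC was found for *Adpgk*, *Ldhc*, *Dcxr* and *Pck1*, and GCTGAC for 14 (20.6%). Of the 4 related genes that fell, *Dcxr* held both, whereas *Sord*, *Pdp2* and *Pcx* held neither in any window. The windows of the 2 members that fell, and that of *Dcxr*, the related gene with the lowest log2 fold change, are printed 5′ to 3′ along the gene, with matches in capitals. The *Pdk2* window (the start nearest to the gene's end in the deposited table, of 2 listed) is chr11:95041322-95041621 on the minus strand, that of *Tkt* chr14:30548881-30549180 on the plus strand, and that of *Dcxr* chr11:120727235-120727534 on the minus strand.
Pdk2: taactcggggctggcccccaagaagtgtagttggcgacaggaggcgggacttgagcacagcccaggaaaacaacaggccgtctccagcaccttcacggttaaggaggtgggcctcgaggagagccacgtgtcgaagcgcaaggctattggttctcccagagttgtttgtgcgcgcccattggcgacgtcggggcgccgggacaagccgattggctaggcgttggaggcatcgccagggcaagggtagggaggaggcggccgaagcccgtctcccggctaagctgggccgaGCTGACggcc
Tkt: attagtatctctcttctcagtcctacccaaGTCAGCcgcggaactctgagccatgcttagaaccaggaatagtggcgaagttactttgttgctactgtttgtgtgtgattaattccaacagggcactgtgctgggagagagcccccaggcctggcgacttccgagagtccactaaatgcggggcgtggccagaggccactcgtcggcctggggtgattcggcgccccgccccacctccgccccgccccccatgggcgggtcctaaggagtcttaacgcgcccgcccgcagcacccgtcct
Dcxr: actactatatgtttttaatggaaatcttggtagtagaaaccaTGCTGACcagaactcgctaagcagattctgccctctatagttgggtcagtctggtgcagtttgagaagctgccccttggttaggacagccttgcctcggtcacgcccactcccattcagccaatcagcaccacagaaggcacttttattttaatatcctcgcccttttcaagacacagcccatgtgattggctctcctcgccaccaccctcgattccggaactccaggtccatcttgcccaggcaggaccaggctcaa
The capitals mark the core GCTGAC from position 41 of *Pdk2*, within the transcribed part, the same core on the opposite strand (GTCAGC) from position -220 of *Tkt*, and TGCTGAC from position -208 of *Dcxr*, with the start base as position 1. These matches are a description of the letters in the windows, and binding was not measured here.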

How the data were processed

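RNA-Seq was performed on total RNA from whole kidneys after rRNA depletion, with 36-base paired-end reads. The authors deposited whole-number read counts per gene, made with featureCounts 2.0.1 per the file header on Ensembl exons of GRCm38 (the submitters' processing notes list Subread 2.0.2), with each read of a pair counted separately, strand ignored, and reads on several genes or places left out. The aligner behind these counts is not given in the sources used here. The authors' own published route was another (mapping in CLC Genomics Workbench, quantile values and an edgeR test). Every column of per-sample values was used (0 left out). From these counts, genes passing filterByExpr (20149 of 55367) were compared with edgeR 4.0.16 (TMM, robust quasi-likelihood test, no covariate) in R 4.3.3, and Benjamini-Hochberg adjusted *P* under 0.05 was called. SE is the absolute log2 fold change over the square root of F. log2 CPM used a prior count of 2, and TPM came from the deposited exon lengths. Totals of 16649129 to 22990257 counts limit the precision of genes under about 1 CPM. Each mouse was 1 replicate, and no 2 libraries of a genotype agreed within sampling noise. The same replicate numbers did not pair the mice. Alternatives were factors by upper quartile or by RLE, limma 3.58.1 on quantile-normalized values, edgeR's exact test, DESeq2 1.42.0, 2 other filters, omission of mitochondrial genes, a replicate block, *Xist* as covariate, the 5 mice with over 1000 *Xist* counts, each mouse left out, a threshold of 0.01, and shares without length scaling. The scripts were tested on simulated data. The members and gene lists were chosen with earlier results of these data known. Genes named in full were those called, those with an unadjusted *P* under 0.05 or no overlap, the highest TPM of each branch, called related and marker genes, *Fbp1*, *G6pc*, *Pck1*, *Alb*, *Acta1*, *Hbb-bs*, *Maf* and *Xist*. Shared 36-base stretches came from GENCODE transcripts of GRCm38. Some listed genes are not reported here.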

Additional observations from a re-analysis of the deposited data

Results flagged for a closer look

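In 12 of 94 groups of 4 mice (47 genes in 2 genotypes), 1 mouse lay so far from the other 3 that its gap, as a share of the group's range, was over Dixon's limit at the 95% level. Chance gives about 1 in 20, or 4.7 groups. The flags fell on mice of both genotypes, and c-MafΔTAM mouse 1 had the most. In c-MafΔTAM mouse 1, the mouse with low *Xist* and the highest mitochondrial share, they were *Gpi1* (137 CPM against 155 to 157, ratio 0.899), *Pkm* (96.2 against 129 to 133, 0.885), *Ldhd* (382 against 164 to 181, 0.922), *Rpe* (30.2 against 23.3 to 23.6, 0.959) and *Dcxr* (30.1 against 42.0 to 43.3, 0.907). In c-MafΔTAM mouse 4 they were *Pfkfb3* (49.5 CPM against 26.3 to 29.5, 0.863) and *Pklr* (88.0 against 42.5 to 48.0, 0.879).

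Among control mice, *Hk2* stood out in mouse 3 (4.82 CPM against 0.932 to 1.29, 0.908), as did *Pck1* (3478 against 2472 to 2608, 0.865). In mouse 4, *Hk3* was at 0.176 CPM against 0.558 to 0.632 (0.838), and *Pgk1* at 11.9 CPM against 17.1 to 17.4 (0.945). In mouse 1, *Ldhb* was at 294 CPM against 325 to 330.3 (0.838). The part of *Xist* status or the mitochondrial share in these values was not tested. Neither *Pdk2* nor *Tkt* was flagged in either genotype.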

How the results depend on the processing

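Counts of called genes moved with the test and the samples more than with the scaling. Against 436 genes over the whole table, edgeR's exact test called 682, DESeq2 886, the fit with *Xist* as covariate 1374, the 5 mice with high *Xist* 789 and a threshold of 0.01 180, and fits without 1 mouse called 239 (without c-MafΔTAM mouse 3; 256 without mouse 2, and 285 without control mouse 3) to 452. Members called lower numbered 1 under quantile normalization and at the threshold of 0.01 (*Tkt* was lost in both), 4 with *Xist* as covariate, and 1 (without c-MafΔTAM mouse 2) to 2 without 1 mouse. Members called higher numbered 1 with edgeR's exact test and with DESeq2, and 0 to 1 (without c-MafΔTAM mouse 4) without 1 mouse. Related genes called higher numbered 4 with the covariate and 1 in the high-*Xist* mice, and related genes called lower numbered 7 with DESeq2. *Galk1* and *Slc37a4* were also called under the loosest filter (1 count in any mouse), and *Galk1* without c-MafΔTAM mouse 4. *Pdk2* was called under every alternative run. *Maf* was at -3.87 in the high-*Xist* mice (adjusted *P* = 0.108) and at -4.05 with an adjusted *P* of 0.0115 against the threshold of 0.01. Lower calls made up 72.9% of all calls, but 59.2% in the high-*Xist* mice, 62.1% with the covariate, 62.5% with the exact test and 86% with the replicate block. The causes were not tested, except that a stricter threshold lowers counts by construction.

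Mice with the same replicate number did not deviate together (correlations of -0.373, 0.152, -0.11 and -0.331 for numbers 1 to 4). A fit with the replicate block called 129 genes, 1 member lower (*Pdk2*, adjusted *P* = 0.0237, but *Tkt* 0.155) and 2 related genes lower (*Pdp2* and *Dcxr*, but not *Sord* at 0.102 or *Pcx* at 0.0892), with *Maf* at -4.28 (adjusted *P* = 0.0516).

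Single members changed sign, without a call on either side. Upper-quartile factors, which moved the median of all genes to 0.0468, gave 0.0288 for *Pfkl*, 0.0106 for *Pfkfb1*, 0.0112 for *Ldhb*, 0.0065 for *Pdk1*, 0.022 for *G6pdx* and 0.0216 for *Pgls*. Quantile normalization gave 0.034 for *Pfkl*, 0.0532 for *Tpi1*, 0.0517 for *Ldhb*, 0.0367 for *Pdk1* and 0.0286 for *Pgls*. The covariate gave 0.10 for *Pfkfb1*, 0.0019 for *Tpi1* and -0.0427 for *Pkm*. The mice with high *Xist* gave 0.60 for *Hk2*, -0.24 for *Hk3*, 0.0489 for *Pfkl*, 0.13 for *Pfkfb1*, 0.0799 for *Tpi1*, -0.0038 for *Pkm* and 0.0527 for *Ldhb*. Without 1 mouse the ranges were -0.70 to 0.46 for *Hk2*, -0.0972 to 0.30 for *Hk3*, -0.0783 to 0.11 for *Pfkl*, -0.30 to 0.21 for *Pfkfb1*, -0.34 to 0.0817 for *Aldoc*, -0.14 to 0.0093 for *Tpi1*, -0.0474 to 0.13 for *Pkm*, -0.0337 to 0.21 for *Ldha*, -0.0885 to 0.0197 for *Ldhb*, -0.17 to 0.10 for *Pdk1*, -0.27 to 0.52 for *Pdk4*, -0.0829 to 0.0718 for *G6pdx* and -0.071 to 0.11 for *Pgls*. Leaving out 1 mouse changed the sign of these 13 members and moved 14 others, none of them called with all 8 mice, by over 1.5 times. Without length scaling the share of *Pfkm* was 25.7% in c-MafΔTAM and 29.2% in control mice, and that of *Pdk2* 65.3% in control mice. In the same order of genotypes, *Pkm* took 69.1% and 78.7%, *Ldhb* 67.4% and 69.7%, and *Hk1* 96.7% and 96.6%. At under about 1 CPM on average (*Hk3*, *Pfkfb1*), changes were not detectable at this depth unless large.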

Other observations

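Some related genes were called only when the *Xist* level was taken into account, and they were chosen here after that result was seen. With log2 *Xist* as a covariate, 4 of the 71 tested related genes were higher in c-MafΔTAM mice, beside 2.59% of all genes tested in that fit. *Mlxipl* encodes the carbohydrate response factor ChREBP. It was at 142, 139 and 144 CPM in c-MafΔTAM mice 2 to 4 against 85.7 and 95.9 CPM in control mice 1 and 2, all with high *Xist*, and at 223 CPM in c-MafΔTAM mouse 1 against 150.2 and 171 CPM in control mice 3 and 4, all with low *Xist*. Within each *Xist* class the genotypes did not overlap. Over all 8 mice the log2 fold change was 0.37 (SE 0.259, adjusted *P* = 0.594 in edgeR's quasi-likelihood test), with the covariate it was 0.53 (SE 0.0866, adjusted *P* = 0.00107), and in the 5 high-*Xist* mice it was 0.64 (SE 0.0844, adjusted *P* = 0.000294). The others were *Ugp2*, which makes the sugar donor of glycogen synthesis (0.32 with the covariate, SE 0.0695, adjusted *P* = 0.00992), the liver glycogen synthase gene *Gys2* (0.60, SE 0.157, adjusted *P* = 0.0311) and *Pdk3* (0.50, SE 0.0932, adjusted *P* = 0.00297). In the 5 high-*Xist* mice these 3 were not called (adjusted *P* between 0.0727 and 0.229 in edgeR's test), at log2 fold changes of 0.25 for *Ugp2*, 0.59 for *Gys2* and 0.41 for *Pdk3*.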
